A study of Homo sapiens with 35 samples.

Results

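Human embryonic stem cells of the line H9, an established line grown from a human blastocyst, were compared after 48 h in E6 medium and after 48 h in E8 medium. The comparison held 6 of the study's 35 libraries, 3 for each medium, chosen by the medium and the time in their labels, and libraries with the same replicate number were treated as a pair. Before the experiment the cells were grown on Matrigel in E8 and passaged by EDTA, and they entered it as single cells. The E8 libraries served as the pluripotency control and the E6 libraries as the control for unguided differentiation. E6 is the same defined base as E8 without FGF2 and without TGF-beta, so both media held the remaining E8 components, insulin among them. No agent other than the medium separated the groups, and all libraries came from 1 cell line. The study also held 3 libraries of cells at time zero, single E6 and E8 libraries at 7 earlier times, and cells in E6 with BMP4 and Activin A. Poly(A) RNA was sequenced from Illumina TruSeq mRNA libraries. Nothing in the labels tells whether the replicates came from different cultures, so the p-values measure only the spread between these libraries.

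FGF2 binds FGF receptors and drives the RAS-ERK kinase cascade. ERK induces its own brakes, the DUSP phosphatases and the SPRY and SPRED proteins, together with ETS factors of the ETV group. TGF-beta, Activin and Nodal bind type I and type II receptors that phosphorylate SMAD2 and SMAD3, which in human embryonic stem cells induce LEFTY1, LEFTY2, NODAL, SMAD7 and NANOG. Both inputs are known to hold these cells in the primed pluripotent state, and cells without them are known to turn towards anterior neural ectoderm when no other signal is given.

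The start regions of 3 genes are shown because they bear on the results below. NANOG, the homeobox factor of the pluripotency network, and DUSP6, the ERK phosphatase, are known responders to the 2 withdrawn inputs, and SOX21 starts beside a non-coding RNA that moved with it. Each window runs from 250 bases before to 50 bases after the RefSeq start on GRCh38.p14 and is written 5′ to 3′ on the strand of the gene. Capitals mark matches to the motif searched, on either strand. For NANOG (chr12:7789152-7789451, plus strand) these were ATGCAAA, most of the octamer motif that POU factors bind, read here on its other strand, and the SOX motif ACAATG. For DUSP6 (chr12:89352452-89352751, minus strand) the motif was the ETS core CGGAAG, and for SOX21 (chr13:94712496-94712795, minus strand) the TATA motif TATAAA, both matched on the other strand.
NANOG: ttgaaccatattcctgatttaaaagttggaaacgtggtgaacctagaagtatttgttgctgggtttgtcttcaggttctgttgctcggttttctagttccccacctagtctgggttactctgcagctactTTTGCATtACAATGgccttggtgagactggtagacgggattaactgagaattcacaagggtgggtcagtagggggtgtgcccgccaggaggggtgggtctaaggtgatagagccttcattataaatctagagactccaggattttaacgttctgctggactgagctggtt
DUSP6: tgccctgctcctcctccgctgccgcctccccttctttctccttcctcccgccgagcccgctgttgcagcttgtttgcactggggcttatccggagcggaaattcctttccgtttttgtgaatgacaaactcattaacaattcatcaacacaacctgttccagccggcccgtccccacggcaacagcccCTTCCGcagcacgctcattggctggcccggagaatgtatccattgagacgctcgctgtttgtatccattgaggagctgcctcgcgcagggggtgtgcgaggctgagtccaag
SOX21: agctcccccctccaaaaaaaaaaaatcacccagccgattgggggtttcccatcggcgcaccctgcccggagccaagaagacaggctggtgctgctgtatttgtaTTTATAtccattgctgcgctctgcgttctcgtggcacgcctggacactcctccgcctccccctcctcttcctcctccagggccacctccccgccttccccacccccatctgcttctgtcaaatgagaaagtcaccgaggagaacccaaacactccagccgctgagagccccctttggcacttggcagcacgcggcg
In the NANOG window ATGCAAA and the SOX motif stood 1 base apart. Among 34943 RefSeq windows of this length, 4.47% held ATGCAAA, 10.8% held ACAATG and 0.73% held both. CGGAAG was in 19.4% of windows and TATAAA in 11.6%. The SOX21 window shared 270 bases with the window of SOX21-AS1 on the opposite strand (94712466 to 94712765). A match describes the letters and is not a mapped binding site.

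The 6 libraries held 17340923 to 37191969 counts (11793453 to 37191969 over all 35), with 1.83 to 3.68% of counts on mitochondrial genes. Levels are given as CPM, counts scaled to library size after TMM scaling over all libraries. The 12 markers of human embryonic stem cells were all above the filter on low counts, and their summed level was 6953 to 8667 CPM in E8 and 9072 to 10212 CPM in E6. Of the markers of other cells, PTPRC, DCN and LUM had at most 1 count in any library and FAP had 0. COL3A1, a fibroblast marker, had 137 and 160 counts in E8 and E6 of replicate 1 and at most 3 in the others. Several endothelial and fibroblast markers were well above the filter in both media and are described at the end. Replicate 1 stood apart from replicates 2 and 3 in both media. Across the genes tested, its log2 CPM correlated with theirs at 0.893 to 0.904, while replicates 2 and 3 correlated at 0.992 in E6 and 0.989 in E8. Results are therefore given with each pair of libraries, and the difference between the sets has its own account below.

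After 48 h without FGF2 and TGF-beta, 1613 of 20005 genes tested differed between the media (8.06%): 871 were higher in E6 (4.35%) and 742 were lower (3.71%). These calls are from edgeR's quasi-likelihood test with the replicate number as a block and a Benjamini-Hochberg adjusted p below 0.05. All adjusted p-values below are from that test unless another is named. Changes of at least 2-fold made up 674 of the calls (3.37% of genes tested), 383 higher (1.91%) and 291 lower (1.45%), and 97 rises and 69 falls reached 4-fold. The sign was the same in all 3 pairs for 1604 of the 1613 genes, which the call itself favours. The 3 libraries of each medium did not overlap in level for 776 of them, against 1888 of all genes tested (9.44%). The mean in E6 was above the time-zero mean for 807 of the 871 higher genes, and below it for 616 of the 742 lower genes. The E8 mean was below time zero for 253 of those 742, and above it for 481 of the 871. The genes were called on these same E6 and E8 libraries, which favours such counts in advance. Without the shares over all genes, the counts do not tell which medium moved away from time zero.

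The number of calls depended on the pairing. The 6 libraries without the block gave 0 calls with the same test, with 946 genes at an unadjusted p below 0.05. A block with all 15 libraries of the replicated groups gave 612. Leaving out pair 1 gave 4554 calls, leaving out pair 2 gave 216 and leaving out pair 3 gave 951. P-values without pair 1, here and below, rest on replicates 2 and 3 alone, which correlated at 0.992 in E6 and 0.989 in E8. Those p-values measure only the spread between these close libraries and are not stronger evidence than the fit over all pairs. Without pair 1, 11.2% of genes tested were called higher and 10.7% lower. These shares were 0.685% and 0.427% without pair 2, and 2.57% and 2.26% without pair 3. The list counts given below for each fit stand against these shares. All 1613 genes kept their sign in each of these fits where they were tested, but the fits reuse the libraries that gave the calls. A kept sign was thereby favoured in advance and is not independent support.

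Several feedback genes of FGF-ERK signalling fell in E6. DUSP6, which dephosphorylates ERK, was at 443, 563 and 518 CPM in the E8 libraries of replicates 1, 2 and 3, and at 76.1, 44.6 and 38.2 CPM in E6. Every E6 library was below every E8 library, and the fitted fall was 9.95-fold (log2 change −3.31, SE 0.25, adjusted p = 0.00157). The time-zero mean was 297 CPM ± 50.6 (SD, n = 3), between the 2 media. SPRY4, an inhibitor of receptor tyrosine kinase signalling, was at 422, 448 and 414 CPM in E8 and at 109, 125 and 114 CPM in E6. Its groups lay far apart and its 3 pairs fell by nearly the same amount (log2 change −1.87, SE 0.07, adjusted p = 0.000214).

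The ETS factors ETV4 and ETV5 fell as well. ETV4 was at 171, 191 and 159 CPM in E8 and at 46.2, 67.4 and 65 in E6 (log2 change −1.55, SE 0.12, adjusted p = 0.00175). ETV5 was at 85.5, 98.8 and 87.7 CPM in E8 and at 28.1, 24.0 and 22.7 in E6 (log2 change −1.86, adjusted p = 0.000724). Neither gene's groups overlapped. IL17RD, a membrane antagonist of FGF receptors, fell from 270 CPM ± 69.4 to 88.1 ± 17.5 (SD, n = 3; log2 change −1.60, adjusted p = 0.000499). IER3, an immediate early response gene, was at 11.9, 135 and 134 CPM in E8 and at 3.58, 22.5 and 17.7 CPM in E6. Its level in replicate 1 was lower than in replicates 2 and 3 in both media, and it fell in each pair (log2 change −2.50, SE 0.21, adjusted p = 0.00206).

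Of 22 tested genes on the list of FGF-ERK feedback and targets, 11 fell, 1 rose and 10 were not called, with a median log2 change of −0.46 against −0.00135 over all genes tested. The share called lower over all genes was 3.71%. The other falling members were MYC, EPHA2, SPRY2, SPRED2 and SPRED1, with log2 changes between −0.89 and −0.44. The rising member was EPHA4, an ephrin receptor, at 34.4, 14.1 and 13.1 CPM in E8 and 65.9, 80.0 and 93.9 in E6 (log2 change 2.11, adjusted p = 0.0186; 0.129 without pair 2, and 1.45e-11 to 0.978 over the alternatives). CCND1, the cyclin D1 gene, was at 440, 152 and 142 CPM in E8 and at 324, 141 and 136 in E6 and was not called (adjusted p = 0.293). PHLDA1 was not called either (adjusted p = 0.279). Without pair 1 the list had 12 lower and 3 higher members (10.7% and 11.2% of all genes). Without pair 2 it had 6 lower and 0 higher (0.427% and 0.685%), without pair 3 11 and 1 (2.26% and 2.57%), and with all 15 libraries 7 lower and 0 higher (1.32% and 1.52%). DUSP6, SPRY4, ETV4 and IER3 were each called in all 10 alternative fits that kept a block.

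FGF receptors moved the other way from the feedback genes. FGFR3 was at 43.6, 29.8 and 28.6 CPM in E8 and at 126, 134 and 148 CPM in E6, with no overlap (log2 change 2.04, SE 0.16, adjusted p = 0.00188). FGFR2 rose from 113 CPM ± 13.2 to 234 ± 17.8 (SD, n = 3; log2 change 1.06, adjusted p = 0.00105). FGFR1 rose less, from 936 CPM ± 54.0 to 1480 ± 210 (log2 change 0.66, adjusted p = 0.0257). FGFR4 was at 116, 124 and 105 CPM in E8 and 108, 132 and 136 in E6 and was not called (log2 change 0.13, adjusted p = 0.503).

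The FGF ligands were mixed. FGF2 mRNA, the cells' own transcript of the factor that E6 lacks, was at 78.9, 59.3 and 57.9 CPM in E8 and at 149, 72.6 and 70.3 in E6. The groups overlapped and the difference missed the threshold (log2 change 0.50, SE 0.13, adjusted p = 0.0748; 0.0315 without pair 1, and 0.0059 to 1 over the alternatives). FGF4 was called higher at very low levels, at most 0.228 CPM in E8 and 0.623 to 0.759 in E6 (log2 change 2.86, adjusted p = 0.0403). FGF13, an intracellular FGF homologue, fell from 143, 72.7 and 65.4 CPM to 102, 19.8 and 18.7 (log2 change −1.37, adjusted p = 0.0308), and FGF12 and FGF18 fell too. Without pair 2 the calls of FGF4, FGF13 and FGF18 were lost (adjusted p = 0.269, 0.196 and 0.175). In all, 5 of 17 tested ligands, receptors and heparan sulfate partners rose and 3 fell. Without pair 2 those counts were 2 and 0.

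Immediate early genes did not follow the feedback genes. EGR1, a zinc finger factor induced by ERK, was at 14.9, 238 and 185 CPM in E8 and at 44.8, 579 and 404 in E6. It was higher in E6 in each pair, although the pairs sat at very different levels (log2 change 1.33, SE 0.10, adjusted p = 0.00168). EGR3, KLF4 and FOSB also rose, and IER2, JUN and MCL1 fell, so that 4 rose and 3 fell among 17 tested. These counts were 1 and 0 without pair 2, 3 and 2 without pair 3, and 7 and 4 without pair 1.

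**Figure D1:**
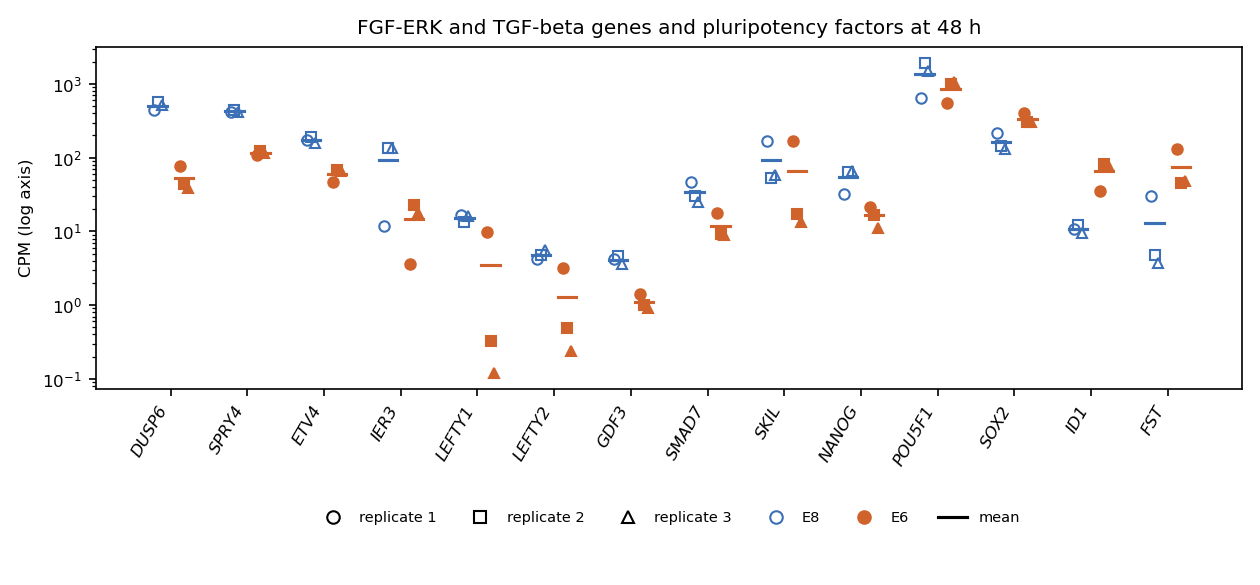
Level of 14 genes in each library at 48 h, in CPM on a log axis. Open blue symbols are E8, filled orange symbols are E6, the shape gives the replicate and the bar the mean of the 3 libraries. DUSP6, SPRY4 and ETV4 have no overlap between media, LEFTY1 and LEFTY2 are low in E6 in replicates 2 and 3 and less so in replicate 1, and SKIL is at 167 to 169 CPM in both media in replicate 1.

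Of 19 tested targets of TGF-beta and Nodal, 4 fell in E6 in the fit over all pairs, and for several the difference varied in size between the replicates. LEFTY1, a Nodal antagonist and textbook SMAD2/3 target, was at 16.6, 13.3 and 16.0 CPM in E8 and at 9.96, 0.321 and 0.119 in E6. The E6 library of replicate 1 kept more than the others, and no E6 library reached an E8 library. The fitted log2 change was −3.41 with an SE of 1.02 and an adjusted p of 0.101. Without pair 1, so over replicates 2 and 3 only, it was −6.02, with an adjusted p of 2.01e-11 (2.01e-11 to 1 over the alternatives). LEFTY2, its near-identical neighbour on chromosome 1, was at 4.21, 4.76 and 5.54 CPM in E8 and 3.19, 0.497 and 0.237 in E6, with an adjusted p of 0.0894 (5.2e-08 without pair 1, and 5.2e-08 to 1 over the alternatives). The 2 genes share much of their sequence, and the deposited counts may divide reads between them.

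SMAD7, the inhibitory SMAD that SMAD3 induces, fell in every pair. It was at 46.8, 30.1 and 25.3 CPM in E8 and at 17.6, 9.20 and 8.92 in E6, without overlap (log2 change −1.53, SE 0.10, adjusted p = 0.000981). BAMBI, a decoy receptor, fell from 22.6 CPM ± 7.05 to 9.88 ± 0.564 (SD, n = 3; log2 change −1.15, adjusted p = 0.0119). PMEPA1, another inhibitor induced by TGF-beta, fell by 0.88 on the log2 scale (adjusted p = 0.0337). Without pair 2 the calls of BAMBI and PMEPA1 were lost (adjusted p = 0.132 and 0.242). SKIL, the SnoN corepressor, was at 169 and 167 CPM in E8 and E6 of replicate 1. In replicates 2 and 3 it was at 53.7 and 59.0 CPM in E8 and 17 and 13.5 in E6, and the fit over all pairs did not call it (log2 change −1.24, adjusted p = 0.109; 3.09e-09 without pair 1, and 3.09e-09 to 1 over the alternatives).

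Of 19 tested TGF-beta and Activin-Nodal targets, 4 fell (NANOG, SMAD7, BAMBI and PMEPA1) and 2 rose (ID1 and COL1A1), with a median log2 change of −0.83. The median difference was −0.03 in pair 1 and −1.14 over pairs 2 and 3. Over all genes 3.71% were called lower and 4.35% higher. Without pair 1, 14 fell and 3 rose, against 10.7% and 11.2% of all genes. Without pair 2, 1 fell and 1 rose, against 0.427% and 0.685%. CTGF and TAGLN are targets tied to contractile and matrix programmes. In replicate 1 they were at 33.7 and 22.7 CPM in E8 and at 47.6 and 24.8 in E6. In replicates 2 and 3 CTGF was at 532 and 522 CPM in E8 and at 242 and 206 in E6. TAGLN was at 396 and 435 CPM in E8 and at 177 and 174 in E6 of these replicates. Neither gene was called in the fit over all pairs (adjusted p = 0.274 and 0.115).

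Ligands and antagonists of the family were mixed. FST, the follistatin gene whose protein binds Activin, was at 30.1, 4.73 and 3.68 CPM in E8 and at 131, 45.9 and 47.9 in E6. It rose in each pair without overlap (log2 change 3.00, SE 0.29, adjusted p = 0.00323). GDF3, a TGF-beta family ligand of pluripotent cells, was at 4.16, 4.60 and 3.65 CPM in E8 and 1.43, 0.993 and 0.919 in E6 (log2 change −1.92, adjusted p = 0.00427; 0.0651 without pair 2, and 4.42e-07 to 1 over the alternatives). NODAL was at 0.968, 1.02 and 1.09 CPM in E8 and 0.495, 0.438 and 0.563 in E6, with no overlap, and missed the threshold (log2 change −1.04, adjusted p = 0.0598). It passed with a block of replicate 1 against replicates 2 and 3 (0.0368) and without pair 1 (0.0273), within a range of 0.0273 to 1 over the alternatives. TDGF1, the Nodal coreceptor, was at 168, 341 and 271 CPM in E8 and 230, 245 and 194 in E6 and was not called (adjusted p = 0.669). Over the list, 3 of 16 tested rose and 2 fell (1 and 0 without pair 2, 4 and 7 without pair 1), and GDF1, INHBB, CFC1 and CFC1B were below the filter on low counts.

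Of 18 tested receptors, SMADs and inhibitors of the pathway, 3 rose and 4 fell, with SMAD7, BAMBI and PMEPA1 among those that fell. TGFBR2, the type II TGF-beta receptor, fell from 19.1 CPM ± 0.763 to 11.2 ± 0.794 (SD, n = 3; log2 change −0.76, adjusted p = 0.00712). ACVR2A, TGFBR3 and SMAD4 rose by 0.49 to 0.79 on the log2 scale. The remaining receptors and SMADs on the list, SMAD2, SMAD3, TGFBR1 and ACVR1B among them, were not called. The counts of this list were 0 higher and 1 lower without pair 2, 1 and 3 without pair 3, and 6 and 5 without pair 1.

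ID1, a helix-loop-helix inhibitor best known as a target of BMP and SMAD1/5, rose in E6. It was at 10.8, 12.2 and 9.47 CPM in E8 and at 35.4, 82.7 and 78.5 in E6, with every E6 library higher (log2 change 2.55, SE 0.25, adjusted p = 0.00324). ID4 rose from 3.99 CPM ± 2.41 to 12.1 ± 0.0382 (SD, n = 3; log2 change 1.77, adjusted p = 0.017; 0.135 without pair 2, and 5.79e-09 to 0.668 over the alternatives), and ID2 rose too. ID3 was at 59.5, 94.7 and 68.3 CPM in E8 and 29.9, 111 and 111 in E6, lower in pair 1 and higher in the others, and was not called (adjusted p = 0.987). Of 14 tested BMP-SMAD targets, 3 rose and 2 fell (SMAD7 and BAMBI), and the median was 0.10. Leaving out pair 2 gave 1 and 1. Among the genes named BMP, a family looked at after its values were seen, 3 of 7 tested were higher in E6 (BMP4, BMP2 and BMP7) and the other 4 were not called. BMP4 rose from 1.89 CPM ± 0.506 to 5.65 ± 0.479 (log2 change 1.57, adjusted p = 0.0092).

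The pluripotency factors moved in different directions. NANOG, whose start region is printed above, was at 32.1, 64.5 and 65.1 CPM in E8 and at 21.6, 16.9 and 11.1 in E6. Every E6 library was below every E8 library, and the fall was 0.56 on the log2 scale in pair 1 and 2.20 over pairs 2 and 3, a difference that was not called (adjusted p = 0.0741) (log2 change −1.70, SE 0.35, adjusted p = 0.0354). The call was lost without pair 2 (0.211) and with all 15 libraries (0.138), over a range of 1.4e-09 to 0.718. POU5F1, the OCT4 gene, was at 652, 1954 and 1507 CPM in E8 and 545, 985 and 1057 in E6. It was lower in each pair, the groups overlapped, and it missed the threshold (log2 change −0.58, SE 0.14, adjusted p = 0.0561). It was called in 5 of 12 alternatives, among them the block of replicate 1 against replicates 2 and 3 (0.0342), DESeq2 (0.0012), limma-voom (0.0393) and the fit without pair 1 (0.000205), over a range of 0.000205 to 1. NANOG and POU5F1 both have processed pseudogenes, so their counts depend on how shared reads were assigned.

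SOX2, the third factor of the core network and also a neural progenitor factor, rose. It was at 216, 144 and 133 CPM in E8 and at 404, 309 and 301 in E6, with no overlap (log2 change 1.07, SE 0.08, adjusted p = 0.00167). In the fit over all 15 libraries SOX2 was not called (adjusted p = 0.65; 1.18e-20 to 1 over the alternatives). SALL4, LIN28A, PRDM14 and PODXL were also higher in E6, with log2 changes of 0.81, 0.73, 1.51 and 0.58.

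THY1, the surface antigen CD90 of human pluripotent cells, fell. It was at 383, 497 and 432 CPM in E8 and at 87.1, 129 and 127 in E6 (log2 change −1.94, SE 0.09, adjusted p = 0.000499). SFRP2, a secreted WNT modulator, fell from 486 CPM ± 73.4 to 215 ± 5.71 (SD, n = 3; log2 change −1.15, adjusted p = 0.0023). Of 26 tested genes of core and primed pluripotency, 10 rose and 6 fell, and the median was −0.11. Without pair 2, 2 rose and 3 fell. Of 9 tested naive genes 3 rose (FGF4, TFAP2C and KLF4) and 2 fell (ESRRB and NR5A2), all with means under 10 CPM. Leaving out pair 2 ended all 5 of these calls. DNMT3B and DPPA4 were not called.

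Anterior neural genes were among the largest rises. FEZF1, a zinc finger repressor of the forebrain, was at 0.399, 0.183 and 0.491 CPM in E8 and at 28.2, 35.4 and 45.5 in E6. It was 109.8-fold higher (log2 change 6.78, SE 0.23, adjusted p = 0.000211), and its time-zero mean was 1.17 CPM ± 0.118 (SD, n = 3). OTX2, the homeobox factor of anterior neural tissue and primed pluripotency, was at 20.7, 31.8 and 26.7 CPM in E8 and at 158, 280 and 295 in E6 (log2 change 3.19, SE 0.12, adjusted p = 0.000214). The time-zero mean of OTX2, 61.3 CPM ± 19.7, lay above all 3 E8 libraries and below all E6 libraries. LHX5, a LIM homeobox factor of the forebrain, was at 1.71 CPM in E6 of replicate 1 against 23.1 and 29.5 in replicates 2 and 3, with at most 0.968 CPM in E8 (log2 change 5.76, SE 1.13, adjusted p = 0.0313; 0.271 without pair 2, 0.0809 without pair 3, and 4.65e-14 to 0.567 over the alternatives).

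SOX21, a SOXB2 factor of neural progenitors, was at 5.64, 0.157 and 0.140 CPM in E8 and at 67.4, 23.4 and 30.6 in E6 (log2 change 5.17, SE 0.66, adjusted p = 0.00754). HESX1, IRX3, MEIS2 and LIX1 rose from low levels, and SFRP1, a secreted WNT inhibitor, rose from 961 CPM ± 394 to 1706 ± 361 (SD, n = 3; log2 change 0.89, adjusted p = 0.00995). MAP2 and ZNF521 rose by 1.42 and 1.06 on the log2 scale. Of 14 tested forebrain genes 6 rose and 1 fell, with a median of 1.66, and of 20 tested neuroectoderm genes 10 rose and 3 fell, with a median of 0.47. Over all genes 4.35% were called higher and 3.71% lower. Without pair 2 those list counts were 2 and 0, and 4 and 2 (0.685% and 0.427% of all genes). Without pair 1 they were 11 and 1, and 11 and 5 (11.2% and 10.7% of all genes).

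Other neural genes were not called or fell. PAX6 was at 1.31, 0.288 and 0.281 CPM in E8 and 1.93, 0.292 and 0.445 in E6 and was not called (adjusted p = 0.423). SOX1 was below the filter on low counts, with 3.96 CPM in E6 of replicate 1 and at most 0.0593 in E6 of the others. EMX2, HES5 and POU3F2 were below the filter too. SIX6, an eye field factor, fell, as did GBX2, SOX3 and SOX4. NES, the nestin gene, was at 486, 831 and 931 CPM in E8 and 485, 718 and 706 in E6 (adjusted p = 0.298).

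**Figure D2:**
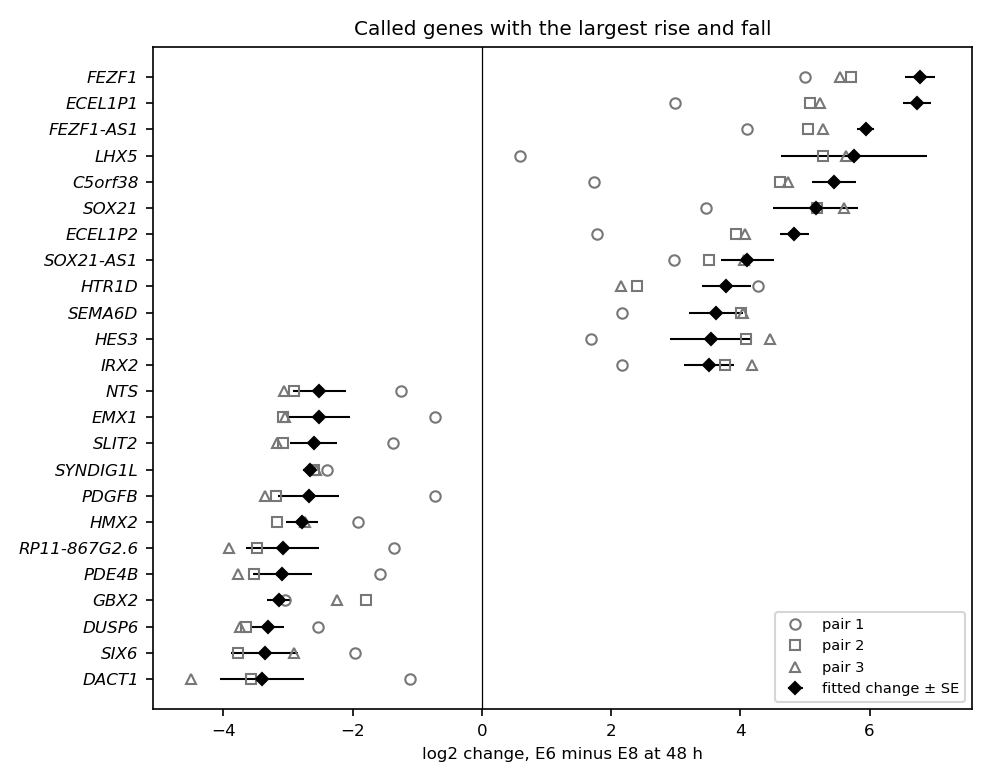
The 12 strongest rises and 12 strongest falls among called genes of at least 10 CPM whose sign was the same in all pairs. Grey open symbols are the log2 difference E6 minus E8 within each pair after 0.5 CPM was added, which draws genes near 0 in one medium towards 0, and black diamonds are the fitted log2 change with its SE. Pair 1 lies nearer 0 than the other pairs for many of these genes. Among them are LHX5, SOX21, SEMA6D, HES3, IRX2, DUSP6, DACT1, PDE4B, PDGFB, SLIT2, EMX1 and NTS. Pair 1 lies farther from 0 for HTR1D.

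Some of the largest rises came from neighbouring genes. FEZF1 (chromosome 7, 122301394 to 122310691, minus strand, GENCODE v29) overlaps FEZF1-AS1 on the opposite strand by 6420 bases, and FEZF1-AS1 was at 0.171, 0.628 and 0.772 CPM in E8 and 11, 36.8 and 49.1 in E6 (log2 change 5.94, adjusted p = 6.19e-05). Whether counting used the strand is not given in the sources used here, so reads of the 2 genes cannot be told apart. SOX21 and SOX21-AS1 lie 316 bases apart on chromosome 13 on opposite strands, and SOX21-AS1 rose by 4.11 on the log2 scale (adjusted p = 0.00344). IRX2, an Iroquois homeobox gene, and C5orf38 lie 468 bases apart on chromosome 5, likewise on opposite strands. IRX2 was at 8.14, 5.99 and 4.81 CPM in E8 and 38.2, 87.5 and 95.7 in E6 (log2 change 3.52, adjusted p = 0.00459), and C5orf38 rose by 5.45 (adjusted p = 0.000906).

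ECEL1P1 and ECEL1P2 are pseudogenes of the ECEL1 endopeptidase on chromosome 2, 28360 bases apart. ECEL1P1 was at 0, 0.235 and 0.281 CPM in E8 and at 3.47, 24.5 and 28.8 in E6 (log2 change 6.74, adjusted p = 0.000211), and ECEL1P2 rose by 4.83 (adjusted p = 0.000499). Both lie next to alkaline phosphatase genes. ALPPL2, 5103 bases from ECEL1P1, rose from 0.22 CPM ± 0.142 to 5.88 ± 3.91 (SD, n = 3; log2 change 4.73, adjusted p = 0.000499). These copies resemble other genes of their families and their counts are uncertain for that reason. The remaining genes among the largest rises were the serotonin receptor gene HTR1D, the semaphorin gene SEMA6D and HES3, with log2 changes of 3.78, 3.62 and 3.54. HES3 encodes a transcriptional repressor found in neural progenitors. The call of HES3 was lost without pair 2 (adjusted p = 0.124; 2.53e-13 to 1 over the alternatives).

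The largest falls beside DUSP6 took in homeobox genes and secreted factors. DACT1, a Dishevelled-binding regulator of WNT signalling, was at 9.05, 32.7 and 39.9 CPM in E8 and 3.91, 2.28 and 1.27 in E6 (log2 change −3.398, SE 0.65, adjusted p = 0.0285). GBX2, a homeobox gene of the hindbrain border, was at 51.3, 2.56 and 2.98 CPM in E8 and 5.78, 0.380 and 0.237 in E6. The media overlapped across replicates, and within each pair E6 was lower (log2 change −3.14, SE 0.18, adjusted p = 0.00077). SIX6 was at 22.7, 10.7 and 5.26 CPM in E8 and 5.45, 0.321 and 0.267 in E6 (log2 change −3.36, adjusted p = 0.0142). HMX2, EMX1 and the guidance ligand gene SLIT2 fell by 2.79, 2.52 and 2.61 on the log2 scale.

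PDGFB, a ligand of the PDGF receptors, was at 10.9, 317 and 300 CPM in E8 and 6.38, 34.3 and 28.9 in E6. Its E8 level in replicate 1 was far below the other replicates (log2 change −2.68, SE 0.47, adjusted p = 0.0217). At time zero PDGFB was at 31.5, 12.2 and 13.7 CPM, so that E8 at 48 h lay below time zero in replicate 1 and far above it in replicates 2 and 3. PDE4B, a cyclic AMP phosphodiesterase gene, SYNDIG1L, the neurotensin gene NTS and RP11-867G2.6 fell by 2.51 to 3.09 on the log2 scale. Without pair 2 the calls of DACT1, SIX6, PDE4B, RP11-867G2.6, PDGFB, SLIT2, EMX1 and NTS were lost, with adjusted p-values of 0.0595 to 0.2, while those of DUSP6, GBX2, HMX2 and SYNDIG1L were kept. Without pair 3 the call of EMX1 was lost (0.0574, and 2.08e-12 to 0.448 over the alternatives).

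Primitive streak and definitive endoderm genes were not called in the fit over all pairs. TBXT, the primitive streak factor listed as T, was at 0.683, 0.262 and 0.316 CPM in E8 and 0.991, 0.818 and 1.01 in E6 (log2 change 1.30, adjusted p = 0.0698). It was higher in each pair and without overlap, and it was called with the block of replicate 1 against replicates 2 and 3 (0.0431) and without pair 1 (0.00411), within a range of 0.00411 to 1. EOMES was at 2.39, 0.549 and 0.140 CPM in E8 and 2.37, 0.204 and 0.208 in E6 (adjusted p = 0.697). With edgeR, 0 of 11 tested primitive streak and mesendoderm genes and 0 of 7 definitive endoderm genes were called, with 4 and 1 at an unadjusted p below 0.05, and DESeq2 and limma-voom called 0 of either list. Leaving out pair 1 gave 2 higher and 3 lower on the first list, and 0 higher and 2 lower on the second. In that fit 11.2% of all genes were called higher and 10.7% lower. CER1, a secreted Nodal antagonist on both lists, was at 7.92 and 9.19 CPM in E8 and E6 of replicate 1, and in replicates 2 and 3 at 2.69 and 3.75 in E8 and 0.0876 and 0.0890 in E6. SOX17, GSC and TTR had at most 5 counts in any of the 6 libraries. FOXA2 had 104 and 70 counts in E8 and E6 of replicate 1 and at most 2 in the others.

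On the list of neural crest and surface ectoderm, 3 of 12 tested genes fell and 0 rose. They were SNAI2, a zinc finger factor of migrating crest cells, KRT18, a simple epithelial keratin, and FOXD3, which pluripotent cells also express. The list had 0 higher and 1 lower without pair 2, and 2 and 4 without pair 1. KRT18 was at 96.0, 341 and 284 CPM in E8 and 50.4, 144 and 136 in E6 (log2 change −1.07, adjusted p = 0.00165). SOX10 had 0 counts in all 6 libraries. Of 16 trophoblast and amnion genes, 5 passed the filter on low counts, and 3 of these rose. KRT7 was at 1.31, 4.55 and 3.54 CPM in E8 and 3.74, 21.2 and 20.6 in E6 (log2 change 2.21, adjusted p = 0.00236), TFAP2C rose by 2.10 and IGFBP3 by 1.62. CDX2, GATA3, CGA and HAND1 had at most 8 counts in any library.

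WNT targets did not move together. TNFRSF19, a receptor induced by beta-catenin, was at 1.25, 1.02 and 1.58 CPM in E8 and 9.63, 11.5 and 13.3 in E6 (log2 change 3.20, SE 0.17, adjusted p = 0.000699). AXIN2 rose by 0.84, and APCDD1 and SFRP2 fell by 1.39 and 1.15, among 12 tested. On the retinoic acid list 4 of 15 tested genes rose and 0 fell. CYP26A1, which degrades retinoic acid, was at 5.52, 22.2 and 20.2 CPM in E8 and 17.9, 156 and 179 in E6 (log2 change 2.66, adjusted p = 0.00307). DHRS3, CRABP2 and CYP26C1 were the others, with log2 changes of 2.12, 1.24 and 2.59. Of 18 Notch genes 3 rose (DLL1, NOTCH3 and DTX4) and DLL3 fell. Without pair 2 the retinoic acid list had 2 higher and the Notch list 1, and without pair 1 they had 8 higher and 1 lower, and 6 higher and 2 lower.

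Adhesion and matrix genes changed in both directions. CDH1, the E-cadherin gene, was at 125, 291 and 258 CPM in E8 and 177, 402 and 382 in E6, higher in each pair with overlapping groups (log2 change 0.52, SE 0.07, adjusted p = 0.00856). CDH2, the N-cadherin gene, was at 244, 123 and 122 CPM in E8 and 248, 103 and 104 in E6 and was not called (adjusted p = 0.359). Of 18 epithelial genes 2 rose and 3 fell (0 and 1 without pair 2). Of 17 mesenchymal genes 5 fell (SNAI2, MMP9, ZEB1, PDGFRB and MMP2) and 2 rose (ZEB2 and VIM), with a median of −0.52. ZEB2, a SMAD-interacting repressor that neural cells also express, was at 16.9, 1.05 and 1.68 CPM in E8 and 37.3, 7.24 and 8.92 in E6. Among 21 tested collagens, laminins and integrins, 5 rose and 3 fell. COL1A1 was at 49.7, 99.3 and 96.4 CPM in E8 and 64.1, 236 and 245 in E6 (log2 change 1.01, adjusted p = 0.0266), and the integrin genes ITGB5, ITGB1 and ITGA5 fell. Without pair 2, 0 mesenchymal and 0 matrix genes were called, and CDH1 was not (adjusted p = 0.155; 1.7e-06 to 1 over the alternatives).

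Lists of growth and metabolism differed in their share of calls, against 4.35% of all genes called higher and 3.71% called lower. Of 22 proliferation genes, BUB1 alone rose (log2 change 0.52) and the median was −0.00147. CDKN1C, the p57 inhibitor of cyclin-dependent kinases, was at 10.5, 11.3 and 10.1 CPM in E8 and 23.7, 24.4 and 24.6 in E6, with little spread in either medium (log2 change 1.20, SE 0.09, adjusted p = 0.00179). SESN3, TXNIP, INSR, FOXO4 and PNRC1 also rose, so that 6 of 17 genes tied to quiescence and growth factor withdrawal rose and 0 fell. These counts were 2 and 0 without pair 2, 3 and 0 without pair 3, and 8 and 4 without pair 1. Of 21 cholesterol and fatty acid genes 2 rose, INSIG1 among them, from 201, 94.0 and 84.6 CPM in E8 to 248, 134 and 126 in E6 (log2 change 0.47, SE 0.08, adjusted p = 0.0201). E6 was higher in 3 of 3 pairs, but the groups overlapped, and the adjusted p was 0.277 without replicate 2 and 0.0574 without replicate 3. SLC2A1, the glucose transporter GLUT1, HK1 and PGK1 fell and EGLN3 rose among 26 genes of glycolysis and hypoxia. Without pair 2 none of the 26 was called (0 higher and 0 lower), and without pair 1 there were 6 higher and 4 lower. DDIT4 alone rose on the ATF4 list and FDXR alone on the p53 list, each of 18 genes. Without pair 1 these lists had 5 higher and 5 lower, and 7 higher and 3 lower (11.2% and 10.7% of all genes).

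Marker lists of unrelated cells gave the following. Of 8 tested blood and endothelium genes, CDH5, an endothelial cadherin gene, fell, from 8.60, 4.60 and 5.05 CPM to 1.38, 0.672 and 0.534 (log2 change −2.86, adjusted p = 0.00139). The summed level of the list was 94.2 to 122 CPM in E8 and 78.3 to 84.3 in E6, with PTPRC at or near 0. KDR, a VEGF receptor gene, was at 84.0, 60.1 and 57.7 CPM in E8 and 52.8, 51.1 and 45.8 in E6 and was not called (adjusted p = 0.0723). TEK, the receptor of angiopoietins, was at 23.4 to 28.2 CPM in E8 and 23.5 to 26.9 in E6. Of 7 tested fibroblast genes 2 rose and 2 fell (0 and 1 without pair 2), and their sum was 884 to 1010 CPM in E8 and 683 to 813 in E6, with DCN, LUM and FAP at or near 0. COL3A1, below the filter too, had most of its counts in replicate 1, as given above. THY1 and COL1A1, which are on that list, are described above. In bulk RNA, fewer cells of a type and less RNA per cell cannot be told apart, here or for any gene above.

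**Figure D3:**
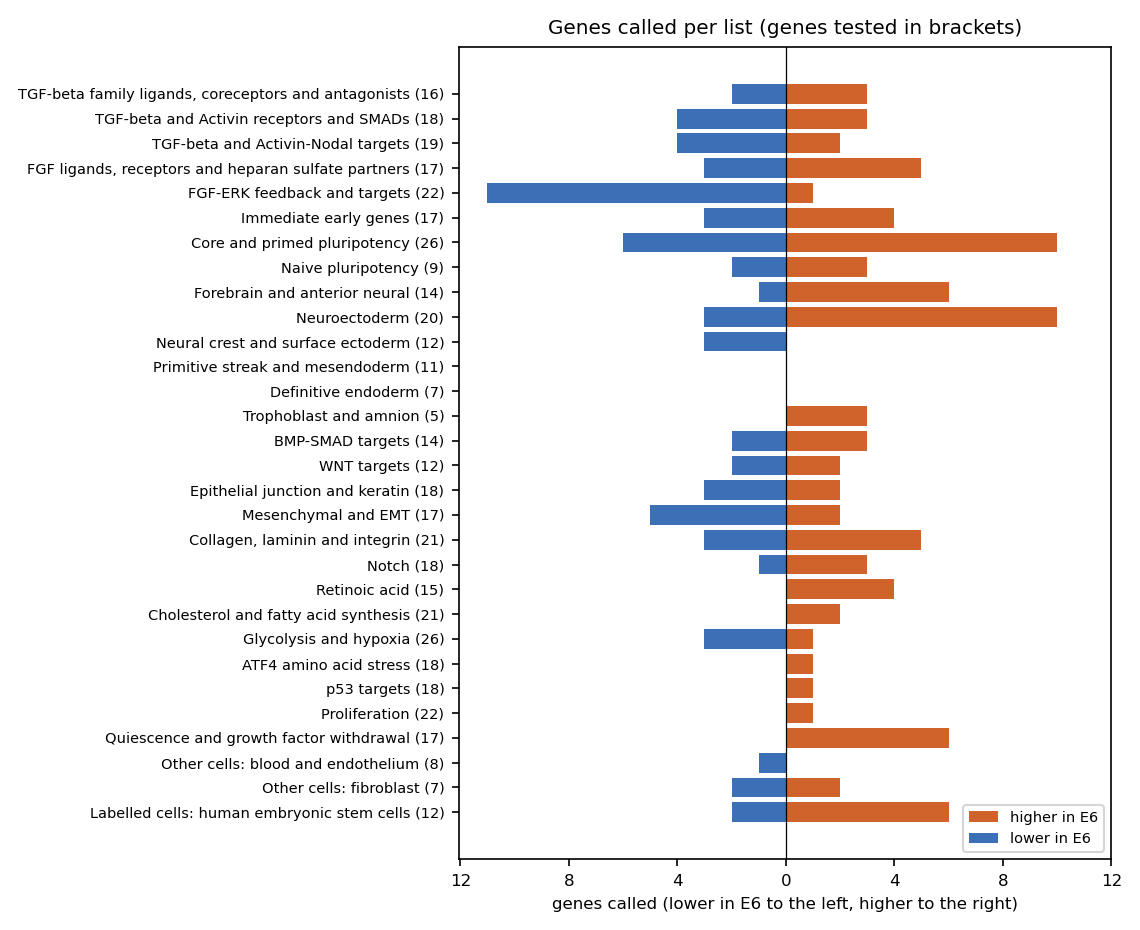
Number of genes called at an adjusted p below 0.05 in each gene list, lower in E6 to the left (blue) and higher in E6 to the right (orange), with the number tested in brackets. FGF-ERK feedback and targets has 11 members lower and 1 higher, and neuroectoderm has 10 higher and 3 lower. Lists differ in size and some share genes.

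The single libraries taken every 6 h gave the levels at earlier times. At 18 h DUSP6 was at 350 CPM in E6 and 434 in E8, in libraries that stood apart, as described below. DUSP6 in E6 was at 420 CPM at 30 h, 270 at 36 h, 111 at 42 h and 76.1 at 48 h, while E8 stayed between 319 and 451 CPM. FEZF1 in E6 was at 1.38 CPM at 36 h, 6.75 at 42 h and 28.2 at 48 h, with at most 1.83 in E8. OTX2 in E6 was at 49.0, 102 and 158 CPM at these 3 times, and SOX2 at 277, 382 and 404. THY1 was at 126 CPM in E6 at 42 h, against 275 in E8.

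Of the 871 genes higher at 48 h, E6 was above E8 for 41.1% at 36 h, 82.7% at 42 h and 99.7% in the 48 h libraries of the same series. Of the 742 lower genes, E6 was below E8 for 37.6%, 89.4% and 99.2%. At 6 h these shares were 43.6% and 44.6%. The 48 h libraries of this series are replicate 1 of the comparison, so the last share is not independent of the calls. Earlier times have 1 library per medium and no replicate check. Shares over all genes tested were not computed for these times. The E8 libraries at 18 h and 36 h and the E6 library at 18 h stood apart from the rest. Because the shares at 36 h were taken against that E8 library, they do not date the onset of the differences. CDH1 was at 18.2 and 24.2 CPM in those E8 libraries and LEFTY1 at 1.04 and 0.699, against 98.3 to 177 and 6.18 to 30.5 CPM in the 13 E6 and E8 libraries of the series that did not stand apart. In the E6 library at 18 h LEFTY1 was at 39.5 CPM and POU5F1 at 1284.

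**Figure D4:**
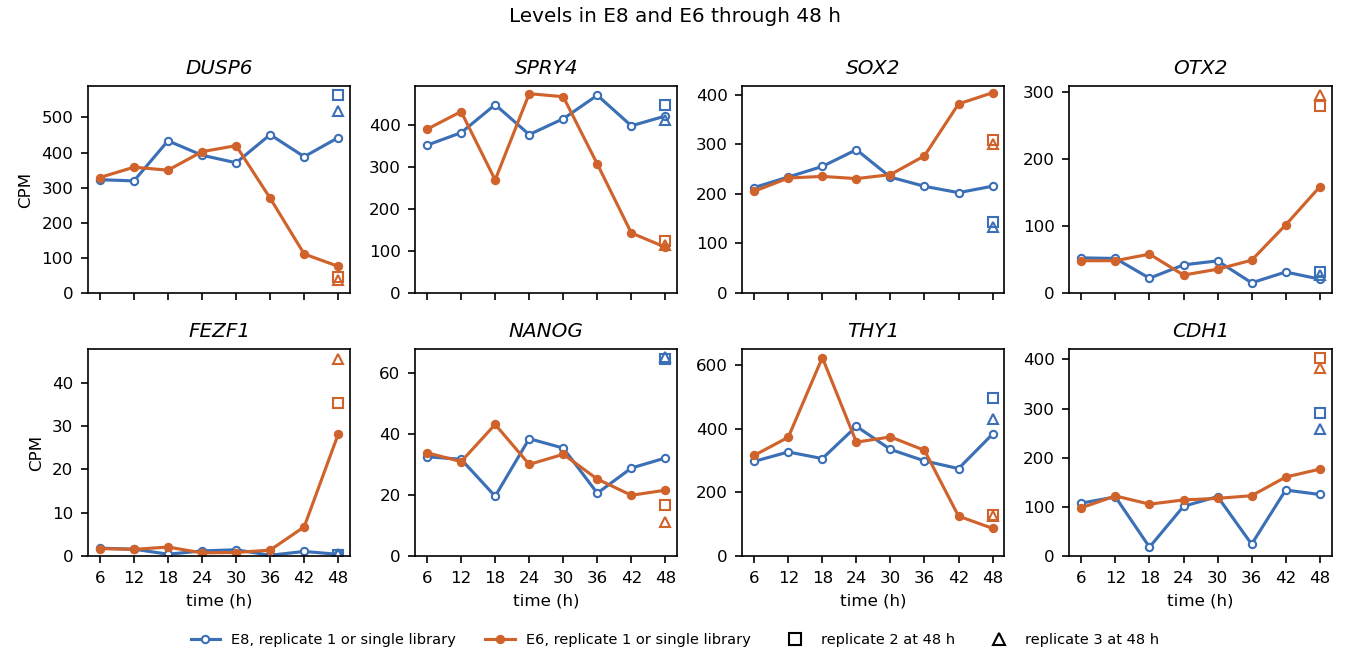
Level in CPM of 8 genes from 6 to 48 h in E8 (blue) and E6 (orange). Lines join the single libraries and replicate 1 at 48 h, and open squares and triangles are replicates 2 and 3 at 48 h. DUSP6 and SPRY4 in E6 lie below E8 at 18, 36, 42 and 48 h. Both libraries at 18 h and the E8 library at 36 h stood apart from the rest, and the E8 libraries at 18 h and 36 h are low in CDH1.

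The size of the medium difference itself differed between replicate 1 and replicates 2 and 3 for 199 genes (0.995% of 20005), by edgeR's test of the interaction of medium and set. The spread came from replicates 2 and 3, and the single library of each medium in set 1 was assumed to vary likewise. Of these genes 91 had opposite signs in the 2 sets and 51 were also called in the comparison itself. The difference was positive for 101 and negative for 98. For DUSP6 the log2 difference, with 0.5 CPM added before the log, was −2.53 in pair 1 and −3.69 over pairs 2 and 3 (adjusted p of the difference = 0.0293). For LEFTY1 it was −0.71 against −4.41 (adjusted p = 0.00717). GREB1L was at 45.9 and 129 CPM in E8 and E6 of pair 1, and at 0.471 and 0.526 CPM in E8 and 47.6 and 60.01 in E6 of replicates 2 and 3 (adjusted p of the difference = 0.00251). NPTX1, a neuronal pentraxin gene, went from 3.02 to 213 CPM in pair 1 and from 22.8 and 16.7 to 62.2 and 32 in the others (adjusted p = 0.0176). GREB1L was picked after its values were seen. SPRY4, OTX2, FEZF1, SOX2 and THY1 were not called in this test (adjusted p = 0.353 to 0.778).

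**Figure D5:**
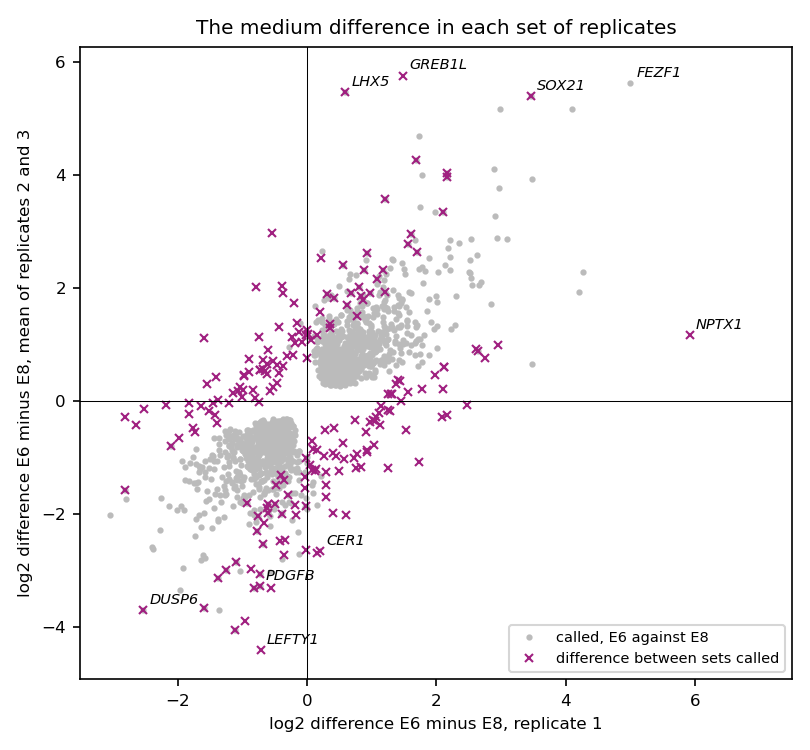
Log2 difference E6 minus E8 in replicate 1 (x axis) and as the mean of replicates 2 and 3 (y axis), with 0.5 CPM added before the log. Grey points are genes called in the comparison of the media and purple crosses are the 199 genes whose difference between the sets was called. LEFTY1, CER1 and LHX5 lie nearer to 0 on the x axis than on the y axis, and NPTX1 lies far out on the x axis.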

How the data were processed

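The analysis started from the gene count table that the authors deposited for 35 libraries, which holds whole-number read counts per gene, not normalized. Per the submitters' processing notes, featureCounts, DESeq2 and hg38 were used; the aligner, the strand setting and versions are not given in the sources used here. The authors' table of their own DESeq2 results was not used. Column names matched the sample titles, and 0 columns of per-sample values were left unmapped. Of 58581 genes, 20005 passed filterByExpr (minimum count 10) over the 6 libraries.

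In R 4.3.3 the counts were fitted with edgeR 4.0.16 (TMM, quasi-likelihood F-test) on medium and replicate number, which leaves 2 residual degrees of freedom, with Benjamini-Hochberg adjustment over all genes tested and a threshold of 0.05. SE is the log2 change divided by the root of F. The scripts were tested on simulated data. Deviations from the group mean of same-numbered libraries correlated at 0.9, 0.815 and 0.76 for replicates 1, 2 and 3, each above 0.1, so the numbers were taken to pair the libraries. Replicates 2 and 3 also correlated across numbers (0.749 and 0.782), so this check cannot tell how these 2 numbers pair. Replicate 1 correlated with them at −0.851 to −0.803. Replicates differed by more than sampling noise (chi-square per gene 11.7 to 212). Alternatives were other blocks, libraries, scalings, filters and tests, including DESeq2 1.42.0, and limma 3.58.1 (voom), which was chosen after seeing the data.

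The 164 named genes were fixed signalling, pluripotency and lineage genes, the 12 largest rises and falls with at least 10 CPM and 1 sign in all pairs, and in each of 30 lists up to 4 called members and at most 2 uncalled ones with the highest level. Genes named outside this rule are other list members, or were chosen after their values were seen. Comparison, lists and members were chosen with earlier results of these data known. Of the named genes 163 matched GENCODE v29 on GRCh38, from which positions come. Results for a few genes are not reported here.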

Additional observations from a re-analysis of the deposited data

Results flagged for a closer look

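For 31 of the named genes given here the medium difference (log2, E6 minus E8) differed between replicate 1 and replicates 2 and 3, by edgeR's test of the interaction of medium and set (adjusted p 0.00549 to 0.0457). Values below are the fitted log2 coefficients of that test, for replicate 1 minus replicates 2 and 3. Each rests on 1 library per medium in replicate 1. They are not a subtraction of the pair differences given above, which had 0.5 CPM added before the log. The 2 measures lie far apart for genes near 0 CPM in 1 medium, such as LEFTY1 and LHX5. They are given as values, and no cause was tested.

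Some genes were lower in E6 in both sets, by more in replicates 2 and 3. The difference between sets was 5.28 for LEFTY1, 3.38 for LEFTY2, 1.16 for DUSP6 and 1.87 for SKIL, whose level in replicate 1 hardly moved. It was 3.13 for DACT1, 2.25 for PDE4B, 2.50 for PDGFB and 1.80 for the guidance ligand gene SLIT2. For the homeobox gene EMX1 it was 2.44, for the neurotensin gene NTS 2.03 and for FGF13 1.34.

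Other genes were higher in E6 in both sets, again by more in replicates 2 and 3. The difference was −7.11 for LHX5, −3.89 for SOX21, −3.11 for HES3, −2.08 for SEMA6D and −1.86 for IRX2. It was −1.35 for FST, −1.75 for EPHA4 and −1.39 for ID4. For COL1A1 it was −0.94 and for CYP26A1 −1.29. NPTX1 was also higher in both sets, by more in replicate 1, with a difference of 4.87.

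Signs were opposite in the 2 sets for 8 genes, with the mean of replicates 2 and 3 as the second set. INHBE (2.48), CTGF (1.73), TAGLN (1.36), CER1 (5.32) and FOXO1 (0.88) were higher in E6 in replicate 1 and lower over replicates 2 and 3. ID3 (−1.44), NOTCH1 (−0.87) and RARG (−1.22) were lower in E6 in replicate 1 and higher over replicates 2 and 3. For NOTCH1 the log2 differences of pairs 2 and 3 themselves had opposite signs (−0.05 and 0.18). NGFR (−1.61) was lower in E6 in pair 1 (−1.64), with −0.24 in pair 2 and 0.06 in pair 3.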

How the results depend on the processing

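The number of calls rested on the replicate block. Of 1613 genes called, and 674 with a change of at least 2-fold, the 6 libraries without the block gave 0 and 0, with 946 genes at an unadjusted p below 0.05. With all 15 libraries of the 5 replicated groups, the block gave 612 and 367 and no block gave 31 and 28. Of the 1613 genes, 574 stayed called with the block over 15 libraries. Leaving out 1 pair gave 216 to 4554 calls, and 197 to 1385 of at least 2-fold. Keeping all genes with at least 1 read gave 2750 and 1051, and 384 in place of 199 genes for the difference between sets of replicates; more genes were tested there (36759), and LEFTY1, LEFTY2 and SKIL were then called. The causes of the other shifts were not tested. A block of 2 levels gave 2279 calls, DESeq2's size factors 1631, its Wald test with the block 1899, limma-voom 1929 and a filter of 1 CPM 1518, each within 1.5 times. All 1613 genes kept their sign in each alternative that tested them, which the reuse of the same libraries favours in advance. Of the named genes, 99 lost their call without the block, 56 without replicate 2, 43 with the block over 15 libraries, 18 without replicate 3 and 0 without replicate 1, where 28 gained one. With 2 residual degrees of freedom the fit borrows its spread across genes, and genes under 1 CPM rest on few counts.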

Other observations

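Gene families were counted by symbol, and these families were chosen after their values were seen, so the counts support nothing beyond themselves. They are from the fit over all pairs and were not repeated with a pair left out. Over all genes in that fit 4.35% were called higher and 3.71% lower. Of 18 tested cadherin genes 8 were higher in E6 and CDH5 was lower. CDH9 was at 0.911, 0.105 and 0.0351 CPM in E8 and 10.02, 8.30 and 10.4 in E6 (log2 change 5.19, adjusted p = 0.00523), and CDH6, CDH7, CDH8 and CDH10 rose as well. Of 11 protocadherins 4 rose, PCDH18 from 42.5 CPM ± 0.802 to 135 ± 17.8 (SD, n = 3; adjusted p = 0.00077). Of 20 semaphorin genes 7 rose and 2 fell. Of 12 WNT ligand genes 5 rose and 0 fell, WNT4 from 0.228, 2.17 and 1.75 CPM to 1.93, 11.6 and 12.1 (adjusted p = 0.00106). The BMP ligand genes BMP2 and BMP7 rose beside BMP4, by 1.39 and 1.03 on the log2 scale (adjusted p = 0.0232 and 0.00294).

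Among falling families, 3 of 7 SOCS genes were lower and 0 higher. SOCS1, an inhibitor of cytokine signalling, was at 4.95, 17 and 12.5 CPM in E8 and 1.76, 4.76 and 4.42 in E6 (log2 change −1.61, adjusted p = 0.00223). Of 10 MMP genes 4 fell and 1 rose, and of 18 ADAMTS genes 4 fell and 1 rose. Single genes outside the lists with small spread between pairs were PAPLN, at 8.14, 4.86 and 4.70 CPM in E8 and 73.1, 34.9 and 41.0 in E6 (adjusted p = 0.000211), and the cation channel gene TRPC4, at 3.93, 5.31 and 5.86 CPM in E8 and 26.9, 35.8 and 35.8 in E6 (adjusted p = 0.000214). IDO1, which degrades tryptophan, was at 1.42, 8.73 and 7.96 CPM in E8 and 8.25, 57.5 and 56.4 in E6 (adjusted p = 0.000214).

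The POTE genes, a family of near-identical copies, gave counts that jumped between copies. POTEF had 8443 counts in E8 of replicate 2 and 1159 in E6 of replicate 2, while in replicate 3 POTEI had 2400 in E8 and 2815 in E6. In those 4 libraries each other copy counted (POTEE, POTEF, POTEI and POTEJ) had at most 56. At time zero POTEF had 5849 counts in replicate 2 and POTEJ had 6406 in replicate 3. In the 25 libraries outside replicates 2 and 3, each copy had at most 12 counts. POTEF was called lower in E6 (log2 change −2.01, adjusted p = 0.0371).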
